A study of Rattus norvegicus with 9 samples.

Results

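The 9 libraries of kidney cortex were divided into 2 sets by a property of their reads, the share that aligned to more than 1 place in the genome. The split at 16% was chosen with earlier results of these data known. In 5 of the 9 libraries that share was above 16% of all counted reads (high-share libraries), and in the other 4 it was below 16% (low-share libraries). The values that made the split were 19.2% in replicate 1, 17.2% in replicate 4, 22.1% in replicate 5, 16.8% in replicate 7 and 18.4% in replicate 8 on the high side. On the low side they were 14.9% in replicate 2, 15.5% in replicate 3, 15.2% in replicate 6 and 15.8% in replicate 9. The libraries nearest to the split were replicate 7, just inside the high side, and replicate 9, just inside the low side. All 9 came from diabetic ZDF rats carrying the fa/fa genotype, a leptin receptor mutant strain with obesity and diabetes, and all carry the treatment label Medical Bypass. The labels name no drug, dose, age, sex, batch or animal, and no untreated or surgical sample was analysed here. The 2 sets are therefore not groups of the study. Since the labels do not say that each replicate is a separate animal, each p-value here is set against the spread among these 9 samples, part of which may be technical.

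A read counter such as HTSeq assigns a read to a gene only where it aligns to 1 place. Reads from near-identical sequences, such as the many processed copies of ribosomal protein mRNAs, repeat elements and duplicated gene families, go to a separate class and never reach a gene's count. Messenger RNAs for ribosomal proteins and respiratory chain subunits are short and abundant, while many regulators of transcription, signalling and protein turnover are made from long transcripts present in few copies. Kidney cortex is mostly proximal tubule, which reabsorbs glucose, phosphate, amino acids and bicarbonate, with distal tubule, glomeruli, vessels and immune cells between.

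The libraries carried the markers of their labelled tissue. The proximal phosphate transporter Slc34a1 stood between 52253 and 107425 in all 9 libraries, and Umod, made by the thick ascending limb, between 40353 and 84097. All levels here are read counts divided by the authors' size factor for the library, a number that corrects for depth, and are not corrected for gene length. In bulk tissue, fewer cells of a type and less RNA per cell cannot be told apart.

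The sets also differed in where their other reads fell. Reads outside annotated genes made 27.3% ± 3.11 (SD, n = 5) of the high-share and 30.9% ± 0.397 (SD, n = 4) of the low-share libraries, with no overlap: 22.03% to 30.02% against 30.4% to 31.3%. Per 100 reads in genes, a measure that leaves the multi-aligned reads out, they were 39.5 to 59.3 against 56.5 to 59.1, and the sets overlapped. The shares of all reads are parts of the same total as the share that made the split, so they were not tested. Reads inside 1 gene made 53.9% ± 1.93 against 53.6% ± 0.390, and the sets overlapped. The share in replicate 2, 14.9%, had a Wilson 95% interval of 14.92% to 14.94%, which covers counting error only, so counting error was far smaller than the differences between libraries. Depth was 18786648 to 43071223 reads in genes in the high-share libraries and 10757440 to 30486556 in the low-share ones. The means, 30013486 and 21085214 reads, did not pass a two-sided exact permutation test (p = 0.190, where the smallest p that 126 splits of 5 and 4 allow is 0.0159). Genes with a read numbered 16782 ± 214 (SD, n = 5) and 16383 ± 516 (SD, n = 4), again with an exact permutation p of 0.190.

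**Figure D1:**
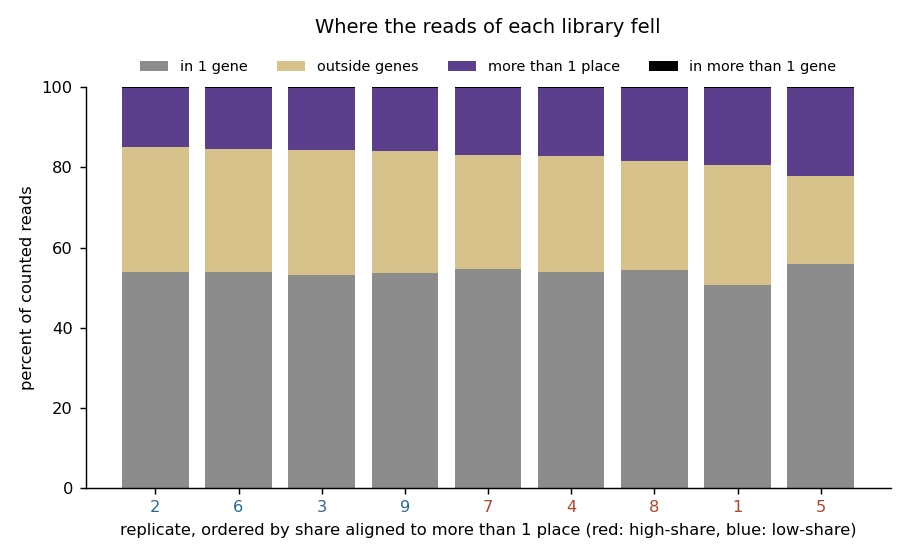
Percent of counted reads (y axis) that fell in 1 gene, outside genes, in more than 1 place or in more than 1 gene, with 1 bar per replicate ordered by the share aligned to more than 1 place. That share runs from 14.9% in replicate 2 to 22.1% in replicate 5, while the share in 1 gene lies between 50.6% and 55.8%.

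The 2 sets also separated in the gene levels themselves. In a principal component analysis of the log2 levels of 13647 genes, from which the reads aligned to several places were left out, the first component held 52.2% of the variance between libraries. Its scores were 22.2, -0.14, 57.5, 23.2 and 36.0 in replicates 1, 4, 5, 7 and 8, and -26.9, -41.3, -30.3 and -40.1 in replicates 2, 3, 6 and 9. All 5 high-share libraries thus scored above all 4 low-share ones, with replicate 4 nearest to them and replicate 5 farthest. Within a set the scores did not follow the order of the shares: replicate 2, with the lowest share, had the highest score of the low side. Components 2 and 3 held 14.1% and 11.1%, and on both the sets overlapped.

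**Figure D2:**
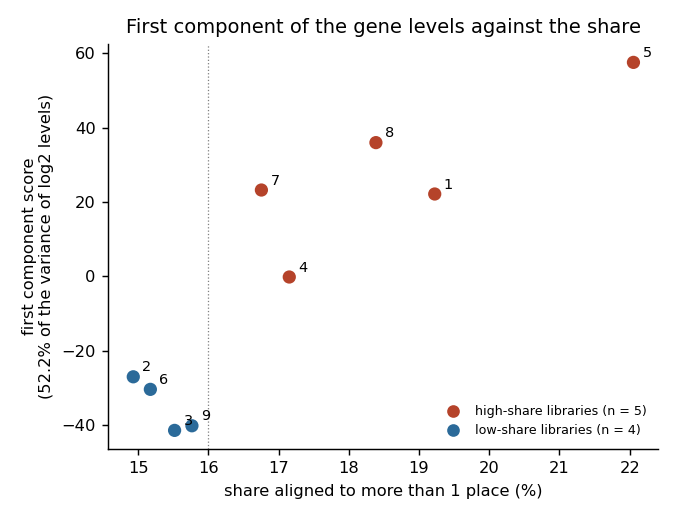
Score of each library on the first principal component of the log2 gene levels (y axis) against its percent of reads aligned to several places (x axis), 1 numbered point per replicate, with the 16% split dotted. The high-share libraries lie between -0.14 and 57.5 and the low-share ones between -41.3 and -26.9.

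Between the sets, 4401 of 13647 genes (32.2%) passed limma's moderated test at an adjusted p under 0.05, on the scale of log2(level + 1) and with Benjamini-Hochberg adjustment over all genes tested. Higher in the high-share libraries were 2032 genes, or 14.9%, and lower were 2369, or 17.4%. The median difference over all genes was 0.04. The reads that made the split enter no gene level, but both come from the same libraries. The split was also chosen with earlier results of these data known, so the adjusted p-values are not independent of that choice. The 2 directions differed in size. Genes called higher had a median difference of 0.60 and only 104 of them, 5.12%, exceeded 2-fold, whereas genes called lower had a median of -0.76 and 722 of them, 30.5%, exceeded 2-fold. The levels of all 5 high-share libraries lay above those of all 4 low-share ones for 1217 genes (8.92%) and below them for 1962 (14.4%), 23.3% in all. Replicate 5, which has the highest share, was the most extreme library for 66.8% of the genes called higher and for 75.1% of those called lower.

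The counts of genes called higher depended on single libraries more than the counts called lower. Leaving out replicate 3, 5, 8 or 9 took the higher count to 1261, 1235, 1057 or 952, and leaving out replicate 4 raised it to 2708, while the lower count stayed between 1687 and 2764. In replicates 4 to 9 alone, 4 libraries against 2, 322 genes were called higher and 1348 lower, and without replicates 7 and 9, the nearest to the split, 280 and 1207. With log2 reads in genes as a covariate, 468 genes were called higher and 1483 lower. When every library was instead thinned to the reads in genes of the shallowest, which was chosen after seeing the data, 1829 and 2157 were called. With library totals of reads in genes made equal, in place of the size factors, 35.0% of the calls were in the higher direction, compared with 46.2% with the size factors, and the median difference over all genes was -0.03.

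Slc4a4, the basolateral sodium bicarbonate cotransporter through which the proximal tubule returns bicarbonate to blood, is the gene by which this split was first noticed, so its values are a description. Genes whose levels vary with those of Slc4a4 are favoured by the same choice. Slc4a4 stood at 952.2, 2407, 1198, 2618 and 2261 in replicates 1, 4, 5, 7 and 8, and at 6240, 5124, 12330 and 8564 in replicates 2, 3, 6 and 9. All 5 high-share libraries lay below all 4 low-share ones. The difference was -2.13 on the log2 scale, 4.36-fold lower in the high-share libraries. Of 27 measured genes of the first proximal segments, 2 were called higher and 2 lower, with a median difference of 0.00. Each count is 7.41% of the list, below the 14.9% higher and 17.4% lower of all genes. Slc4a4 is 1 of the 2 lower. The sodium lactate transporter Slc5a12 was lower by 0.92 (limma, SE 0.28, adjusted p = 0.0259), and Amn, part of the cubilin receptor complex, higher by 0.78 (SE 0.23, adjusted p = 0.0219). Slc34a1 differed by 0.46 (adjusted p = 0.107) and the gluconeogenic enzyme Pck1 by -0.06 (adjusted p = 0.866). Replicate 1 stood apart on this list, with a mean log2 level of 12.94 against 13.63 to 13.88 in the other high-share libraries.

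The genes with a symbol and the lowest moderated statistics included Rnf152, Mfap3l, Crebrf, Mib1, Cpeb4, Itgb8, Shroom4, Pank3, Mtr, Atl3 and Pikfyve. Their differences ran from -2.27 to -1.13, each with an adjusted p of 1.77e-04 by limma. Their known roles are varied: Rnf152 and Mib1 are ubiquitin ligases, Cpeb4 binds the tails of mRNAs and Itgb8 is an integrin chain. Pank3 phosphorylates pantothenate on the way to coenzyme A, Mtr is methionine synthase and Pikfyve a lipid kinase of endosomes. Crebrf, a regulator of the stress transcription factor CREB3 family, stood at 134.7, 122.6, 66.6, 112.8 and 82.1 in replicates 1, 4, 5, 7 and 8 and at 365.1, 435.9, 447.8 and 473.8 in replicates 2, 3, 6 and 9. It was 4.24-fold lower in the high-share libraries (log2 difference -2.08, SE 0.20), with no overlap. Cpeb4 stood at 465.8, 533.1, 241.6, 469.2 and 350.8 in the high-share libraries, in the same order of replicates, and at 1683, 1350, 2138 and 2159 in the low-share ones (log2 difference -2.18, SE 0.22). In both genes every high-share library lay below every low-share one, and replicate 5 was the lowest. Rnf152, a ligase of the lysosome membrane, stood at 750.7, 952.2, 688.9, 1013 and 859.9 against 1927, 2576, 2596 and 2467 (-1.49, SE 0.14). All of those named here were called under each of the 24 other settings tried.

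The 12 genes with the highest statistics were Gemin7, Ifitm2, Clec2l, RT1-T24-3, Npdc1, Arl2, Pcolce, Stard10, Fbxo44, Hmg20b, Ecm1 and Wdr34. Their differences were smaller, 0.65 to 1.63, and their adjusted p-values larger, 0.00107 to 0.00265 by limma. Gemin7, a subunit of the complex that assembles splicing ribonucleoproteins, stood at 162.5, 106.1, 155.9, 138.8 and 156.6 in replicates 1, 4, 5, 7 and 8 and at 61.4, 59.7, 81.3 and 57.3 in replicates 2, 3, 6 and 9. It was 2.20-fold higher in the high-share libraries (log2 difference 1.13, SE 0.19), with replicate 4 the lowest of the high side and no overlap. Ifitm2, an interferon-induced membrane protein, stood at 3530, 2933, 4078, 3536 and 3496 against 2254, 1742, 2363 and 1822 (0.79, SE 0.14). Clec2l, a lectin-like membrane protein, was low throughout, at 33.9, 27.7, 30.01, 18.97 and 28.3 against 11.7, 5.97, 9.57 and 6.51 (1.63, SE 0.29). Arl2 (0.77) is a small GTPase of tubulin folding, Pcolce (0.90) an enhancer of procollagen processing, and Stard10 (0.75) a phospholipid carrier. In replicates 4 to 9 alone, Pcolce and Ecm1 were no longer called, while the other 10 were. RT1-T24-3 belongs to a family of near-identical histocompatibility genes, and Ifitm2 and Arl2 have pseudogene copies, so their counts are uncertain.

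**Figure D3:**
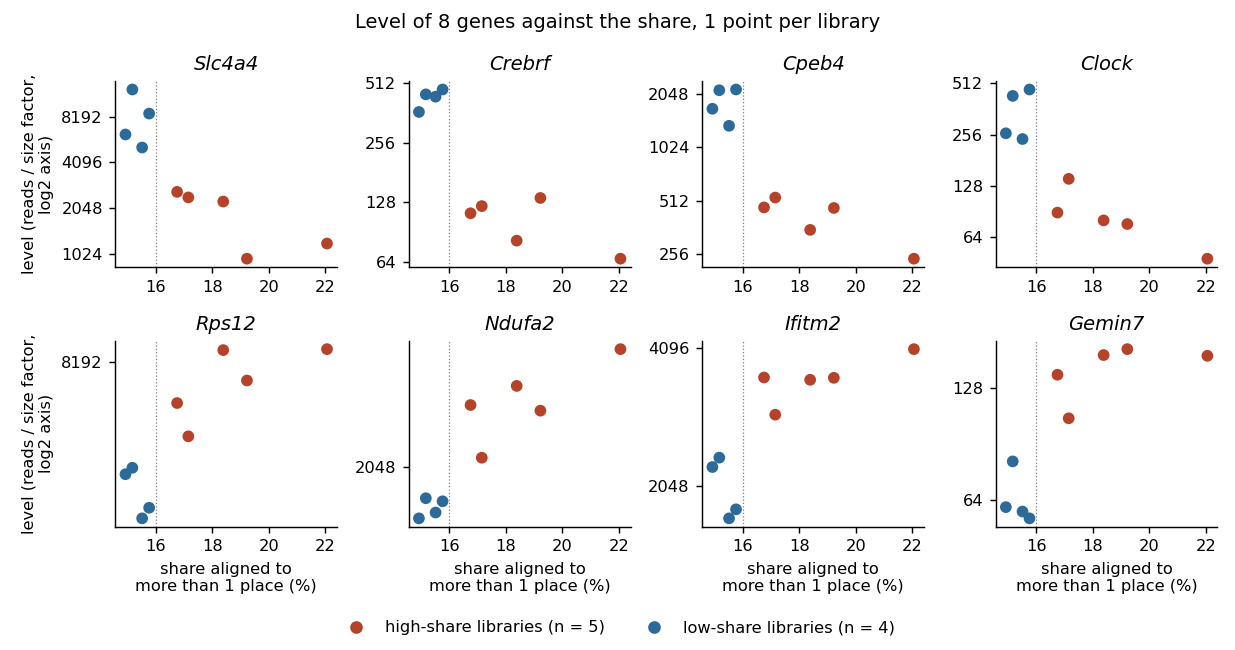
Level of 8 genes (reads divided by the size factor, log2 y axis) against the percent of reads aligned to several places (x axis), 1 point per library, with the 16% split dotted. Slc4a4, Crebrf, Cpeb4 and Clock are lower in all 5 high-share libraries than in all 4 low-share ones, and Rps12, Ndufa2, Ifitm2 and Gemin7 are higher.

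Among transcript classes defined by symbol, 3 housekeeping classes stood higher in the high-share libraries with no member called lower. Of 66 cytosolic ribosomal protein genes tested, 34 were called higher, 51.5% against 14.9% of all genes, with a median difference of 0.47 against 0.04. Of 75 nuclear-coded respiratory chain genes 40 were called higher (53.3%, median 0.46), and of 68 mitochondrial ribosomal protein genes 35 (51.5%, median 0.42). Mean log2 levels of the 66 ribosomal protein genes were 12.14, 11.98, 12.60, 12.19 and 12.39 in replicates 1, 4, 5, 7 and 8 and 11.61, 11.84, 11.76 and 11.83 in replicates 2, 3, 6 and 9. The respiratory chain mean ran from 12.17 to 12.77 against 11.80 to 12.02, and the mitochondrial ribosomal mean from 10.25 to 10.72 against 9.95 to 10.14. In each of the 3 classes the sets did not overlap, and replicate 5 was the highest library. Of 41 listed classes with at least 3 genes tested, 4 had higher means without overlap and 4 lower. The fourth of the higher ones was the histones, at 8.42 to 8.82 against 8.24 to 8.30. Of 11 histone genes 2 were called higher, 18.2% and near the 14.9% of all genes, and none lower.

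Rps12, a protein of the small ribosomal subunit, stood at 7582, 5997, 8649, 6896 and 8615 in replicates 1, 4, 5, 7 and 8 and at 5115, 4250, 5255 and 4443 in replicates 2, 3, 6 and 9 (log2 difference 0.66, SE 0.14, limma adjusted p = 0.00535). Every high-share library exceeded every low-share one. Ndufa2, a subunit of complex I, stood at 2659, 2138, 3537, 2729 and 2982 against 1614, 1658, 1772 and 1747 (0.71, SE 0.14, adjusted p = 0.00302), also without overlap. Mrps24, of the mitochondrial small subunit, differed by 1.03 (SE 0.20, adjusted p = 0.00322), and Cox6b1 and Cox4i1, subunits of cytochrome oxidase, by 0.65 and 0.75. The classes were not uniform. Rpl5 stood between 15272 and 31712 and differed by 0.09 (SE 0.19, adjusted p = 0.752), and Atp5f1b and Atp5f1a, the abundant beta and alpha chains of the catalytic part of ATP synthase, differed by 0.21 (adjusted p = 0.368) and 0.13 (adjusted p = 0.558).

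Direction in these 3 classes was steadier than the number of calls. Over the 24 other settings the medians stayed between 0.39 and 0.54 for the ribosomal proteins, 0.39 and 0.54 for the respiratory chain and 0.30 and 0.48 for the mitochondrial ribosome. The ribosomal count fell from 34 to 19, 22, 14 and 22 without replicate 2, 6, 8 or 9, to 6 with depth as a covariate, to 7 without the library nearest to the split on each side, and to 1 in replicates 4 to 9 alone. The respiratory chain count fell from 40 to 12, 9 and 2 under the last 3 of these, and the mitochondrial ribosomal count from 35 to 17, 10 and 6, and to 22 without replicate 8. Over all 13647 genes the higher calls in those 3 fits were 468, 280 and 322. In replicates 4 to 9 alone the ribosomal and respiratory shares were near that of all genes, and the mitochondrial ribosomal share was above it. With depth, and without the nearest libraries, the shares of all 3 classes were above it.

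Because reads from copied sequences are what the share counts, genes were also grouped by how many pseudogene copies RefSeq names for them, a grouping added after the data were seen. Of 75 tested genes with 10 or more named copies, 27 were called higher and none lower (median 0.33), and their mean log2 levels were 12.26 to 12.69 in the high-share and 12.03 to 12.25 in the low-share libraries. The 35 that are cytosolic ribosomal proteins held 22 of the 27 calls and had a median of 0.48. The other 40, which include Eef1a1, Hspa8 and Hsp90ab1, had 5 calls, 12.5%, close to the 14.9% of all genes, and a median of 0.02. Eef1a1, the elongation factor that brings transfer RNA to the ribosome, has 20 named copies and differed by 0.01 (SE 0.15, limma adjusted p = 0.951). The 31 ribosomal protein genes with fewer than 10 named copies had 12 called higher and a median of 0.43. Genes with 5 to 9, 2 to 4, 1 and no named copy had medians of 0.21, 0.08, 0.01 and 0.04. Only reads that align to 1 place are counted in any of these genes, so levels of genes with near-identical copies are uncertain.

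Other housekeeping machinery had fewer calls. Of 35 proteasome genes 10 were called higher, 28.6% against 14.9% of all genes, and none lower (median 0.24), and the set means overlapped, at 11.09 to 11.56 against 10.93 to 11.25. That count was 5 to 6 without replicate 5, 6, 8 or 9 and 16 without replicate 1. Of 21 mitochondrial import genes 6 were called higher (28.6%) and 1 lower (median 0.29). Translation factors split into 10 higher and 7 lower of 56 (17.9% and 12.5%) and splicing factors into 12 higher and 7 lower of 66 (18.2% and 10.6%), shares near the 14.9% and 17.4% of all genes. Of 9 subunits of RNA polymerase II limma called 3 higher (33.3% against 14.9% of all genes) and none lower. These were Polr2c, Polr2e and Polr2j, by 0.39, 0.51 and 0.49, while the catalytic chains Polr2a and Polr2b differed by -0.23 (adjusted p = 0.128) and -0.29 (adjusted p = 0.0821).

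**Figure D4:**
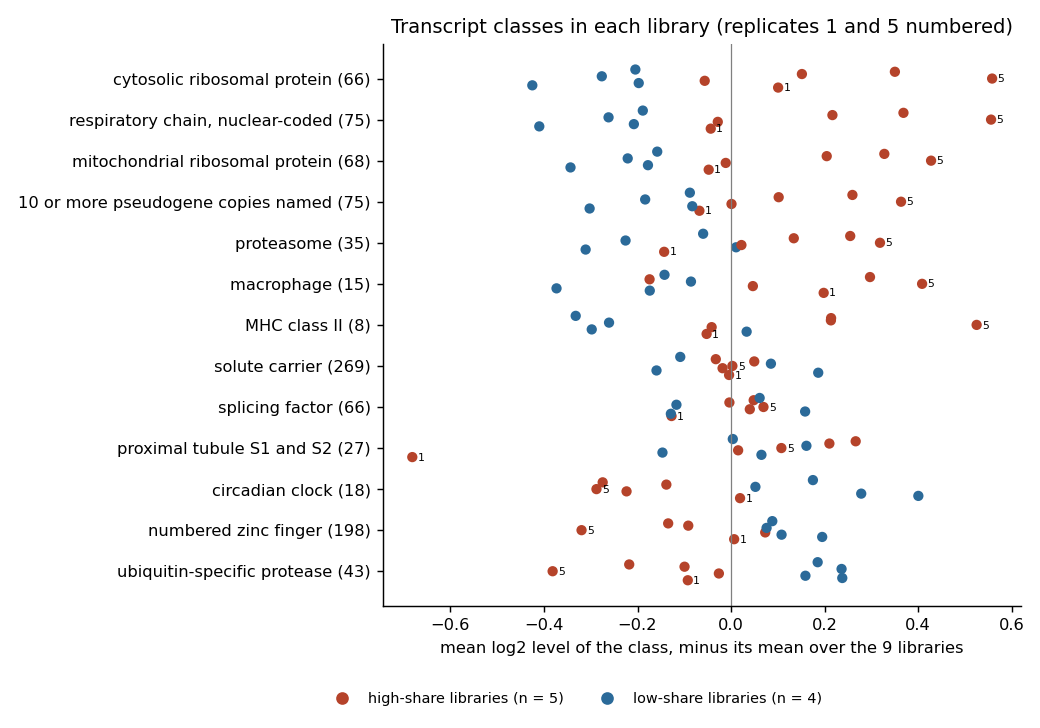
Mean log2 level of 13 transcript classes in each library, less the class mean over the 9 libraries (x axis), with the number of genes tested in brackets. High-share libraries lie to the right of low-share ones for both kinds of ribosomal protein and the respiratory chain, and to the left for the ubiquitin-specific proteases, zinc finger genes and clock genes.

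The classes whose means lay lower without overlap were ubiquitin-specific proteases, numbered zinc fingers, clock genes and gene models with an Ensembl identifier alone. Of 43 ubiquitin-specific proteases, the enzymes that remove ubiquitin from proteins, 18 were called lower (41.9% against 17.4% of all genes) and 1 higher, with a median of -0.33. Their mean log2 levels were 8.66 to 9.01 in the high-share and 9.20 to 9.28 in the low-share libraries. Usp31 stood at 61.7, 67.9, 60.0, 63.9 and 80.5 in replicates 1, 4, 5, 7 and 8 and at 175.6, 165.2, 298.1 and 239.5 in replicates 2, 3, 6 and 9 (log2 difference -1.67, SE 0.20, limma adjusted p = 2.18e-04). Every high-share library was below every low-share one. Usp37 (-1.66), Usp45 (-1.18) and the abundant X-linked Usp9x (-0.69) were also lower, and Usp21 was the 1 called higher (0.34). The median stayed between -0.42 and -0.26 over the other settings. The count fell to 9 in replicates 4 to 9 alone, 10 without the library nearest to the split on each side and 11 with depth as a covariate. Over all 13647 genes the lower calls in these 3 fits were 1348, 1207 and 1483, in each a smaller share than of the 43.

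Numbered zinc finger genes, most of them DNA-binding repressors, had 52 of 198 called lower (26.3% against 17.4% of all genes) and 21 higher (10.6% against 14.9%), with a median of -0.21. Their mean levels were 7.34 to 7.73 against 7.73 to 7.85, so the sets met at 7.73, and over the 200 tested genes with the stem Zfp they overlapped. For comparison, the second lowest quintile of mean level, at 7.19 to 7.40, had 23.0% called lower and 13.5% higher. The part of level in the zinc finger counts was not tested. Zfp871 had the lowest statistic, with a difference of -1.83 (SE 0.26, adjusted p = 4.76e-04 by limma). The calls were 15 lower and 2 higher in replicates 4 to 9 alone and 23 and 5 with depth as a covariate. Over all 13647 genes these 2 fits called 1348 lower and 322 higher, and 1483 and 468. The zinc finger share called lower was thus below that of all genes in the first fit and near it in the second. Without replicate 8 or 9 the zinc finger calls higher were 12 or 10. Of 1238 gene models known only by an Ensembl identifier, 252 were called lower and 136 higher, shares of 20.4% and 11.0% that lie near the 17.4% and 14.9% of all genes. Their median was -0.06, and 0.01 with no filter on low values.

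Circadian clock genes had 5 of 18 called lower (27.8% against 17.4% of all genes) and none higher (median -0.31), with mean levels of 8.60 to 8.90 against 8.94 to 9.28. Clock, the core activator of the cycle, stood at 76.1, 140.4, 47.6, 88.9 and 80.0 in replicates 1, 4, 5, 7 and 8 and at 260.2, 240.9, 432.0 and 471.2 in replicates 2, 3, 6 and 9 (-2.03, SE 0.28, adjusted p = 4.26e-04 by limma). Bhlhe41 (-1.19), Bhlhe40 (-0.56) and Per2 (-0.47) were lower as well, and Tef, an output factor of the clock, differed by -0.14 (adjusted p = 0.720). The class was not uniform: 7 of the 18 differences were above 0, the highest at 0.75, though none of these was called. The labels give no hour of sampling. Tef stood at 3364 to 4022 in replicates 1 to 3 and at 1407 to 2614 in replicates 4 to 9, a second division of the libraries that crosses the sets. With that division as a covariate, 1773 genes were still called higher and 2220 lower between the sets, and with the sets as a covariate that division itself had 4 and 26 genes called in the 2 directions. In replicates 4 to 9 alone 1 of 18 clock genes was called lower, a smaller share than the 1348 of all 13647 genes. Without replicate 3, 6 or 8, 3 clock genes were called lower.

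**Figure D5:**
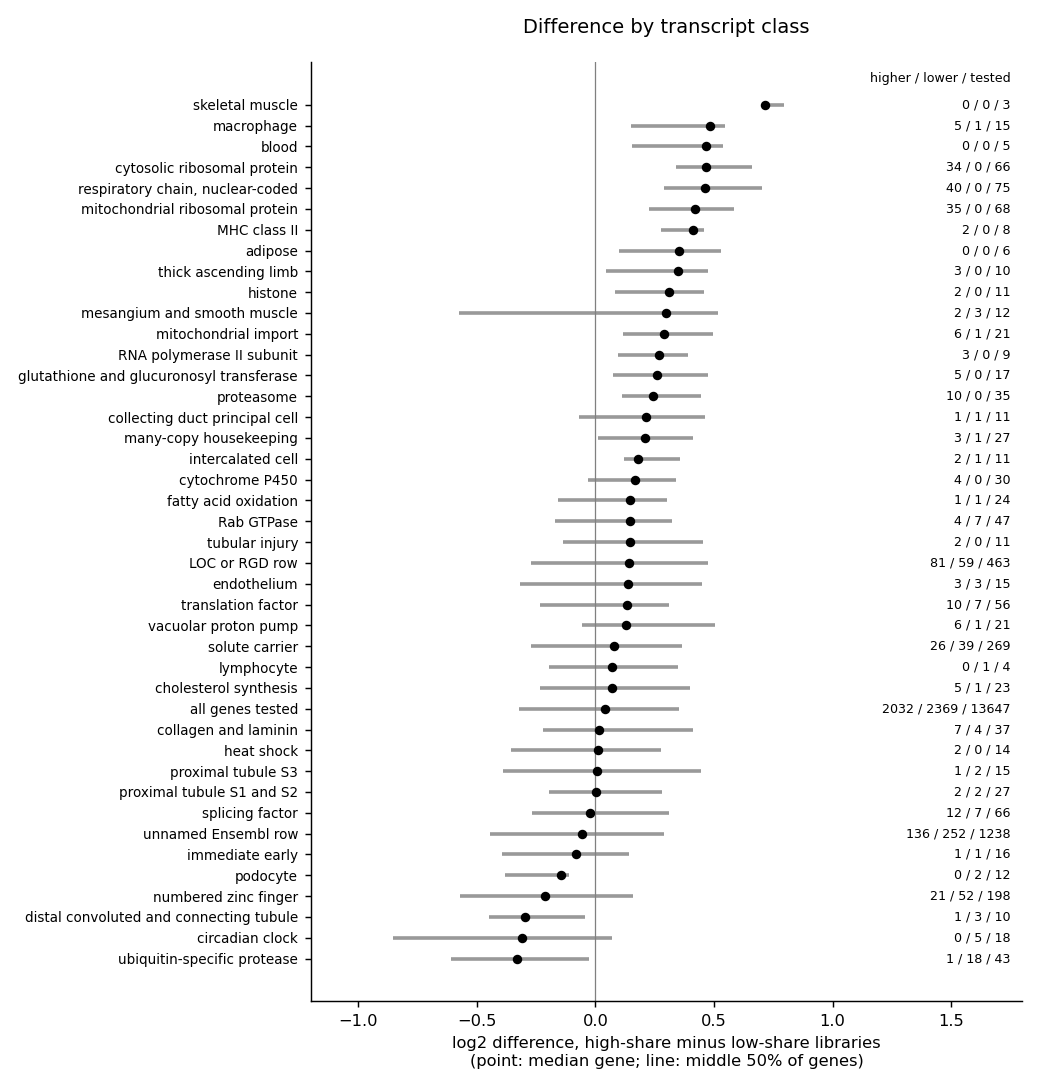
Median log2 difference between high-share and low-share libraries for each class with at least 3 genes tested (points), the middle 50% of its genes (lines) and the numbers called higher, called lower and tested. Ribosomal and respiratory classes lie between 0.42 and 0.47 with no gene called lower, and ubiquitin-specific proteases lie lowest at -0.33.

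Grouping all genes by the stem of their symbol, again after the data were seen, gave 100 families with at least 12 genes tested, of which 52 had a median above 0 and 48 below. The lowest medians belonged to phosphodiesterases and their partners (Pde, -0.47, 8 of 19 lower and 2 higher), histone demethylases (Kdm, -0.43, 7 of 12 lower and none higher) and kinase A anchoring proteins (Akap, -0.39, 6 of 12 lower and none higher). Called lower were thus 42.1%, 58.3% and 50% of these families, against 17.4% of all genes. Pde4d, which breaks down cyclic AMP, was lower by 1.29, Kdm5a by 1.53 and Akap2 by 1.05. Centrosomal proteins (Cep, 10 of 30 lower and none higher, Cep350 at -1.46), Kelch-like proteins (Klhl, 8 of 29 lower and 2 higher, Klhl11 at -1.77 and Klhl24 at -1.24) and kinesins (Kif, 8 of 27 lower and 1 higher, Kif5b at -1.10) also had medians below 0. Their shares called lower were 33.3%, 27.6% and 29.6%, and all 6 families were picked from the 100 with these values known. The highest median was that of the claudins, the sealing proteins of tight junctions (Cldn, 0.50). Only 3 of 15 were called higher, 20% and near the 14.9% of all genes, and none lower. They were Cldn14, Cldn6 and Cldn10, and the levels of the first 2 overlapped between the sets. Next came Rpl (0.47), Mrpl (0.45), Rps (0.45) and Cox (0.43). The Rps stem also holds the ribosomal S6 kinases, signalling enzymes that are not part of the ribosome. Of these, Rps6ka1 was higher (0.53) and Rps6ka6 lower (-1.28).

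Lists of cell type markers held calls in both directions or few calls. Of 15 endothelial markers 3 were called in each direction, 20% each, near the 14.9% higher and 17.4% lower of all genes. Eng (0.55), Egfl7 (0.79) and Plvap (0.50) were higher, and Flt1 (-0.92), Tek (-0.49) and Cdh5 (-0.47) lower. Flt1, a receptor for vascular endothelial growth factor, stood at 733.2, 693.9, 558.6, 732.8 and 592.8 in replicates 1, 4, 5, 7 and 8 and at 1065, 1023, 1455 and 1505 in replicates 2, 3, 6 and 9. Eng, a co-receptor for transforming growth factor beta, stood at 4237, 3448, 4190, 4004 and 4318 against 2705, 2076, 3383 and 3015. The sets did not overlap in either gene, in opposite directions. The part of endothelial content in these differences was not tested. In replicates 4 to 9 alone, the endothelial median was -0.08 in place of 0.14.

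Immune markers were called in both directions. Of 15 macrophage markers 5 were called higher (33.3% against 14.9% of all genes) and 1 lower (6.67% against 17.4%), with a median of 0.48. Tyrobp, an adaptor of immune receptors, stood at 207.7, 147.6, 242.3, 159.7 and 223.0 in replicates 1, 4, 5, 7 and 8 and at 101.0, 121.4, 118.3 and 111.9 in replicates 2, 3, 6 and 9 (0.77, SE 0.18, limma adjusted p = 0.00783). The complement chain C1qc (0.76) and the receptor chain Fcer1g (0.58) were also higher, whereas the mannose receptor Mrc1 was lower (-0.70, SE 0.20, adjusted p = 0.0191), without overlap. The abundant Lyz2 and Ctss differed by 0.15 (adjusted p = 0.416) and 0.14 (adjusted p = 0.465). The list means overlapped, at 7.84 to 8.42 against 7.64 to 7.93, and the count of markers called higher was 3 without replicate 3, 5, 8 or 9 and 0 in replicates 4 to 9 alone. Of 8 MHC class II genes, which present antigen, 2 were called higher (25%) and none lower (median 0.41), with means of 9.80 to 10.38 against 9.52 to 9.89. Of 4 lymphocyte markers tested none was called higher and 1 lower (25% against 17.4% of all genes), with a median of 0.07. Above 0 were 3 of the 4, the highest at 0.97, and 1 was higher without overlap between the sets. The 1 called lower was Ptprc, the phosphatase CD45 found on white blood cells in general. It differed by -0.79 (SE 0.20, adjusted p = 0.0128 by limma), with levels that overlapped between the sets. The part of immune cell content in the other differences was not tested.

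Along the nephron, the marker lists were short and differed in direction. Of 10 markers of the thick ascending limb 3 were called higher (30% against 14.9% of all genes) and none lower, and of 10 in the distal convoluted and connecting tubule 1 was called higher and 3 lower (30% against 17.4%). Of 15 markers of the last proximal segment 1 was called higher and 2 lower (6.67% and 13.3%), of 11 principal cell markers 1 and 1 (9.09% each), and of 11 intercalated cell markers 2 and 1 (18.2% and 9.09%). Tfcp2l1, a transcription factor of the collecting duct, was lower by 1.59 (SE 0.24, limma adjusted p = 5.77e-04), and Hsd11b2, the steroid-inactivating enzyme of the same cells, differed by 0.57 (adjusted p = 0.0779). Of 12 podocyte markers none was called higher and 2 lower (16.7%, median -0.14), with Podxl at -0.36 (adjusted p = 0.0512). Among metabolic genes, Ppara, the nuclear receptor for fatty acids, was lower by 1.18 (SE 0.20, adjusted p = 0.00133), while Ehhadh, a peroxisomal enzyme it is known to control, differed by -0.25 (adjusted p = 0.388). No marker of blood (5 tested), fat (6), skeletal muscle (3) or adrenal gland (2) was called in either direction by limma. Their median differences were 0.47, 0.35, 0.71 and -0.01, and the list means overlapped between the sets. Above 0 were 5 blood, 5 fat, 3 muscle and 1 adrenal marker. The part of such tissue in the libraries was not tested. The haemoglobin gene Hba-a2 ranged from 7564 to 26196 in the high-share and 2920 to 18453 in the low-share libraries.

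Promoter sequence was compared as a property of the genes that the reads do not enter. They came from RefSeq in the GRCr8 build, 250 bases before to 50 after each start, and matched 9391 of 11462 tested genes with a symbol (81.9%). Genes called lower had a median of 64.3% G and C and 25 CpG pairs per promoter, genes called higher 60.0% and 19, and all tested genes 61.0% and 20. Of the letters searched on both strands, GGGCGG was in 66.9% of promoters of genes called lower, 63.0% of those called higher and 61.9% of those tested. For CGGAAG, which can overlap it, the shares were 28.2%, 36.7% and 30.4%. CCAAT was in 35.2%, 39.0% and 37.4%, and TATAAA in 5.00%, 6.81% and 6.71%. Over all 27457 promoters of the table the 4 shares were 34.9%, 17.4%, 37.7% and 14.3%. These are descriptions of letters, not of binding.

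The 150 bases before the start are shown for 3 genes that were lower and 2 that were higher in the high-share libraries, since they show how single promoters differ within each direction; capitals mark CpG pairs. They lie at chr14:19468283-19468432 (Slc4a4), chr10:16966431-16966580 (Crebrf) and chr16:34441710-34441859 (Mfap3l), and at chr1:88352204-88352353 (Gemin7) and chr1:205482349-205482498 (Ifitm2), all on the minus strand of GRCr8.
Slc4a4: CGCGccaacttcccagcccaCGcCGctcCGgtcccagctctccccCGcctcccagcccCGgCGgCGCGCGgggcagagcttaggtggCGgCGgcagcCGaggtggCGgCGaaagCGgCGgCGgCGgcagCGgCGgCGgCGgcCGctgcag
Crebrf: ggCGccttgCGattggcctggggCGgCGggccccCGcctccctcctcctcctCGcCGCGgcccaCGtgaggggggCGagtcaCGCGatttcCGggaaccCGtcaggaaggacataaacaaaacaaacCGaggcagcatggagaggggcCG
Mfap3l: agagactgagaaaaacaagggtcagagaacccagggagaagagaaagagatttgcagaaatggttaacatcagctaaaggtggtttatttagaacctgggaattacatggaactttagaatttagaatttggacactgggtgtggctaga
Gemin7: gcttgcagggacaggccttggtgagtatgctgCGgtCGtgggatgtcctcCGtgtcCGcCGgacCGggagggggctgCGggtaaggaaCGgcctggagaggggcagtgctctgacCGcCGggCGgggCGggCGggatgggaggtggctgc
Ifitm2: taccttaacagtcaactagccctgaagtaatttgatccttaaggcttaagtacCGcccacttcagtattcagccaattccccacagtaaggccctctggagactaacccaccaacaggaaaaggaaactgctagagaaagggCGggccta
These windows of 150 bases hold 25 CpG pairs for Slc4a4, 16 for Crebrf, 0 for Mfap3l, 13 for Gemin7 and 2 for Ifitm2. Over the whole 300 bases to which the medians refer, Slc4a4 holds 47 and Crebrf 29, above the median of 25 for genes called lower, but Mfap3l holds 0 although it was lower too. Of the genes that were higher, Gemin7 holds 31 and Ifitm2 4, on either side of their median of 19. Promoters rich and poor in CpG pairs thus occurred in both directions.

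With the share added beside the 2 sets, a model added after the data were seen, limma called 0 of 13647 genes (lowest adjusted p 0.236). An unadjusted p under 0.05 was found for 1697 genes. The model fits 1 slope for both sets. Shares ran only from 14.9% to 15.8% in the low-share libraries, against 16.8% to 22.1% in the high-share ones. The slope therefore rests mostly on the high-share libraries, and neither set was tested alone. With the share as a continuous term in place of the sets, 2225 genes were called higher and 2549 lower with a rising share. Of 103 called genes named by rule or in the text, 46 were called under each of the 24 other settings.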

How the data were processed

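RNA from frozen kidney cortex of 9 samples of 1 labelled group was made into stranded mRNA libraries, per the labels' protocols. Counting with HTSeq 0.6.1p1, DESeq2, FastQC 0.11.2, MultiQC 0.9 and the build Rnor_5.0 are named per the submitters' processing notes. The aligner is not given in the sources used here, nor is the DESeq2 version. What the authors deposited is a signal: read counts per gene divided by 1 size factor per library. Whether counting used strand is not given, so overlapping genes are uncertain.

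Each library's size factor was recovered from the step between its low values, and 100% of values came out as whole reads within 0.1. The table has 18423 rows, of which 18420 are genes (265 at 0 throughout) and 3 are reads outside genes, in more than 1 gene and in more than 1 place. These 3 entered the shares only. A hyphen was restored in 50 symbols. The members, the 16% split and the gene lists were chosen with earlier results of these data known.

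Genes with a mean level of at least 10 were compared on log2(level + 1) by limma 3.58.1 (robust trend, two-sided, R 4.3.3), which understates changes of low genes. Depth was 10757440 to 43071223 reads in genes. The script was tested on simulated data. edgeR 4.0.16 and DESeq2 1.42.0 on recovered reads, other pseudocounts (0.5, 5), filters (none, 100), scalings, covariates and leaving out libraries were alternatives. Python 3.11.15 with pandas 2.3.3, scipy 1.17.1 and matplotlib 3.10.9 made the tables and figures. Genes were named as Slc4a4, the 12 highest and 12 lowest statistics that kept direction without each replicate, and in each list the 2 most abundant genes and the one with the largest statistic; not all of these are printed, and some are not reported here. Further genes, such as Kdm5a, Pde4d, C1qc, Tek, Plvap, Amn and Cldn14, were chosen after their values were seen.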

Additional observations from a re-analysis of the deposited data

Results flagged for a closer look

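In 7 of 92 comparisons of library values within a set, 1 library stood apart from the others of its set; chance does so in about 1 in 20. Replicate 1 did so in 4 of these among the high-share libraries. Its mean log2 level was 12.94 for the first proximal segments (next 13.63) and 13.34 for fatty acid oxidation (next 13.92), both low. It was 10.45 for principal cells (next 9.77) and 10.49 for podocytes (next 10.07), both high. Among the low-share libraries, replicate 2 was high for the last proximal segment at 11.71 (next 11.01), replicate 6 low for blood at 7.14 (next 8.04), and replicate 3 high for gene models known only by an Ensembl identifier at 8.12 (next 8.11). The part of any library's position in these differences between the sets was not tested.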

How the results depend on the processing

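No paired analysis was possible because all 9 samples carry 1 group label and the sets were made from the reads. The genes called higher, 2032, numbered 952 to 2708 over the fits leaving out 1 replicate, 1327 with the same total per library, 322 in replicates 4 to 9 alone, 280 without the library nearest to the split on each side and 468 with depth as a covariate. The genes called lower, 2369, numbered 1348, 1207 and 1483 under the last 3. The first 2 of those settings leave fewer samples; for the others the cause was not tested. edgeR called 1951 and 2384, DESeq2 2297 and 2549. Class medians moved by more than the spread between replicates in 35 of 1197 values. The vacuolar proton pump median was 0.0167 to 0.255 leaving out 1 replicate and 0.28 with depth as a covariate. Rab GTPases had 0.0752 to 0.158 leaving out 1 replicate, 0.0732 at a mean of at least 100, 0.0788 with the same total, 0.0718 in replicates 4 to 9 alone, 0.105 with depth, 0.0917 with replicates 1 to 3 as a covariate and 0.101 after thinning. Glutathione and glucuronosyl transferases had 0.20 to 0.42 and 0.14 with depth. Ensembl-only models had -0.0791 to -0.0217 leaving out 1 replicate, 0.0120 with no filter, -0.124 with the same total, -0.0281 in replicates 4 to 9 alone, -0.0256 with the share as a continuous term and -0.0157 with depth. Numbered LOC and RGD models had 0.0728 with the same total and 0.200 in replicates 4 to 9 alone. In replicates 4 to 9 alone the median was -0.37 for podocytes, -0.13 for mesangium and smooth muscle, -0.0835 for endothelium, 0.329 for lymphocytes and 0.0558 for genes with 1 pseudogene copy. Clock genes had -0.54 to -0.24 leaving out 1 replicate, -0.14 at a mean of at least 100 and -0.60 without the nearest libraries. With the same total, genes with 1 pseudogene copy had -0.0608, and the genes in the quintiles of mean level between the lowest and the highest had -0.0822, -0.0471 and -0.0185. Among named genes, the difference of Rpl5 was -0.0590 to 0.292 leaving out 1 replicate, lowest and reversed without replicate 6. Other named genes with small differences, among them Pck1, Eef1a1 and Tef, also did not keep their direction in every such fit. For other named genes 257 values were no longer called, 48 of them in replicates 4 to 9 alone. Depth limits genes near a level of 10, and with 5 and 4 libraries no exact p can go below 0.0159.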
